A study of Bos taurus with 12 samples.

Results

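Prostaglandins are made in the endometrium, act there on membrane receptors, and are broken down there, and this account follows the genes of those steps through 12 arrays of bovine endometrial biopsies. The 10 genes are the cyclooxygenases PTGS1 and PTGS2, the terminal synthases PTGES, PTGIS and PTGDS, the receptors PTGER2, PTGER4 and PTGFR, the transporter SLCO2A1 and the degrading enzyme HPGD. Every probe set that the platform annotation assigns to 1 of these symbols alone was taken, 16 in all, among 9155 genes with a symbol of their own on the array. A gene counts as measured when a probe set has a log2 value above 4 on at least 3 of the 12 arrays. By this rule 8 of the 10 genes were measured, out of 6781 measured genes. PTGFR and SLCO2A1 were not measured.

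The biopsies came from Simmental heifers during the oestrous cycle before the one in which each received an embryo. They were taken at day 7 and at day 14 of that cycle and sorted afterwards by what followed the transfer. CD marks heifers that later delivered a calf. NP marks those that did not become pregnant and came back into heat. The 4 groups CDd7, NPd7, CDd14 and NPd14 hold 3 arrays each. No treatment of the heifers is stated, so whether any was given is not known, and no age is stated. Each array holds RNA of a pool. The sources used here do not say which heifers entered which pool, so p-values measure the spread between these pools. The arrays are of whole biopsies, in which fewer cells of a type and less RNA per cell cannot be told apart.

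Prostaglandin synthesis starts when the cyclooxygenases turn arachidonic acid into prostaglandin H2, which a terminal synthase then converts into one product: prostaglandin E2, prostacyclin, prostaglandin D2 or prostaglandin F2 alpha. In cattle, pulses of prostaglandin F2 alpha from the endometrium late in the cycle end the life of the corpus luteum, and PTGS2 is the inducible step of that synthesis. Prostaglandin E2 acts on PTGER2 and PTGER4, which both raise cyclic AMP in the cell. SLCO2A1 carries prostaglandins across the membrane and HPGD inactivates them inside the cell.

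The median log2 value of an array was 4.89 to 5.06. The epithelial markers EPCAM and KRT18 were above the filter on all 12 arrays, and KRT8, a further defining marker, was at 1.60 to 1.70. Of 7 smooth muscle markers with a probe set only MYLK was measured, and the other 6, MYH11, ACTA2 and DES among them, lay between 1.87 and 3.35 on every array. Of 7 endothelial markers only CLDN5 was measured, and the other 6, PECAM1, CDH5 and VWF among them, lay between 1.93 and 3.59. Of the mast cell markers only KIT was measured, at 7.09 to 10.30. On the log2 scale, 3' probe sets of 3 control transcripts exceeded their 5' probe sets, a measure of RNA integrity and labelling, by 0.62 ± 0.15 in CDd7 and 0.88 ± 0.05 in CDd14 (mean and SD of 3 pools). In NP this excess was 0.87 ± 0.12 at day 7 and 1.10 ± 0.15 at day 14.

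Prostaglandin genes passed the threshold of the test only between the days in the heifers that delivered a calf. This was also the comparison in which the largest number of all measured genes passed. From CDd7 to CDd14 the prostaglandin E2 receptor PTGER2 rose 3.49-fold, while the other prostaglandin E2 receptor, PTGER4, fell 6.49-fold and the prostacyclin synthase PTGIS fell 5.21-fold. These 3 of 8 measured genes passed the threshold, an adjusted p under 0.05 in limma with Benjamini-Hochberg adjustment over 13449 probe sets (37.5%, against 24.1% of all measured genes). The latter are 1633 genes, which became 643 without CDd7 pool 2 and 812 without CDd14 pool 3. The 1 gene that rose stands beside 9.87% of all genes and the 2 that fell beside 14.2%. With only 8 genes, these counts are not read as a trait of the set. The values of CDd7 and CDd14 did not overlap in any of the 8 genes, against 44.9% of all genes. For PTGES the gap was only from 6.22 in CDd7 to 6.23 in CDd14. PTGDS was below the filter in all CD pools and was kept through its NP values, so nothing is read from this count. In the heifers without pregnancy 0 of 8 genes passed between the days in limma, against 0.133% of all genes. At an unadjusted p under 0.05 there were 0 of 8, against 1116 of all 6781 genes.

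**Figure D1:**
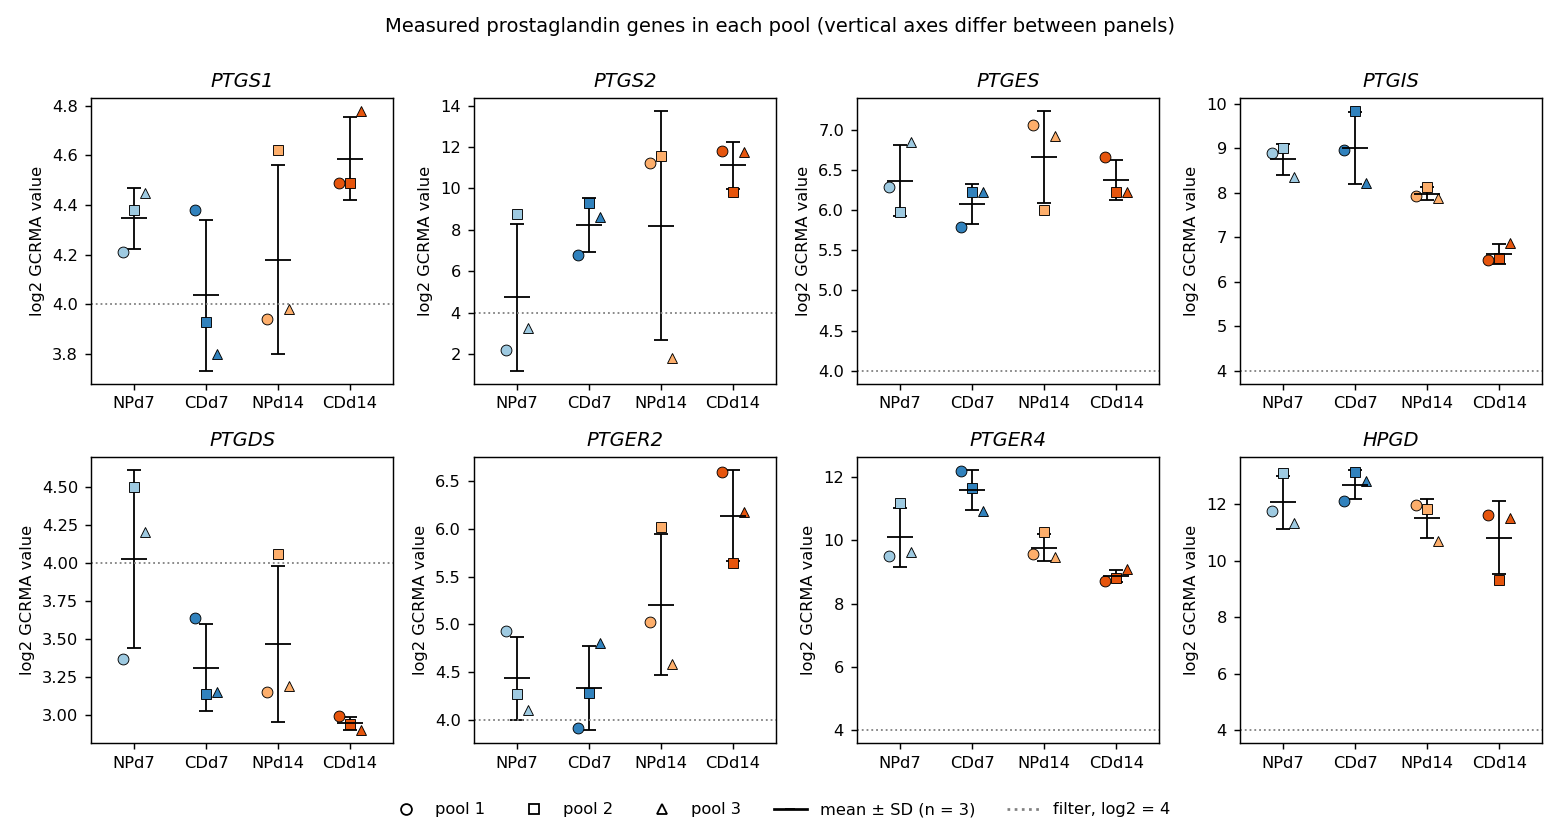
Log2 GCRMA value (vertical axes, scaled per panel) of the 8 measured prostaglandin genes in each pool of the 4 groups (horizontal axes), with the mean and SD of 3 pools. PTGER2 in CDd14 (5.64 to 6.59) lies above CDd7 (3.92 to 4.80), PTGER4 and PTGIS in CDd14 lie below all other groups, and PTGS2 spans from 1.80 to 11.78.

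PTGS2, the inducible cyclooxygenase, had the widest spread of the measured members, 9.98 on the log2 scale between its lowest and highest array. Its brighter probe set stood at 2.17, 8.77 and 3.25 in NPd7 pools 1 to 3 and at 6.78, 9.27 and 8.61 in CDd7 pools 1 to 3. At day 14 the NP pools read 11.23, 11.58 and 1.80, and the CD pools read 11.78, 9.80 and 11.75. So all 6 CD pools were above the filter, while NPd7 pools 1 and 3 and NPd14 pool 3 were below it, near background. Group means were 11.11 ± 1.13 in CDd14, 8.22 ± 1.29 in CDd7, 8.20 ± 5.55 in NPd14 and 4.73 ± 3.54 in NPd7 (log2, SD, n = 3). CDd14 and CDd7 did not overlap, and the further neighbours in this order did.

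Between the days PTGS2 had a log2 difference of 2.89 ± 2.47 in CD (SE, limma adjusted p = 0.410) and 3.47 ± 2.47 in NP (limma adjusted p = 0.515). The spread within the NP groups enters both errors, since the 4 groups share 1 estimate of the variance. With the 6 CD arrays alone the CD difference had a limma adjusted p = 0.0550. Without NPd14 pool 3 the NP difference was 6.67 (limma adjusted p = 0.108), without NPd7 pool 2 it was 5.49, and without NPd14 pool 1 or 2 it was 1.96 or 1.78. Without NPd7 pool 1 it was 2.19 (limma adjusted p = 0.817).

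A second kept probe set of PTGS2 gave a picture by day. It was at 2.36 to 2.50 on all 6 arrays of day 7, below the filter. At day 14 the NP pools read 7.59, 7.59 and 2.41, and the CD pools read 7.66, 4.58 and 6.57. NPd14 pool 3 was thus at the level of day 7 on both probe sets. In CD this probe set rose by 3.82 ± 1.23 on the log2 scale (SE, limma adjusted p = 0.0469), from a level near background, where the size of a fold rests on the GCRMA floor. It was above the filter on 5 arrays, all of day 14, so it was kept for its day 14 values and the rise is given as a description. This call is close to the threshold: it was lost without any 1 of the 3 NPd7 or 3 CDd7 pools or CDd14 pools 1 or 3, where the limma adjusted p was 0.0601 to 0.131, and with no filter (0.106). In NP this probe set had a difference of 3.44 ± 1.23 (limma adjusted p = 0.220), likewise a description. Over the 12 fits without 1 array the limma adjusted p was 0.0146 to 0.490. Only the fit without NPd14 pool 3, the pool near background, passed, with a difference of 5.16. The third probe set of PTGS2 was at 2.31 to 2.48 throughout. The brighter and the second probe set correlated at 0.75 over the 12 arrays, which share the separation of the days.

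**Figure D2:**
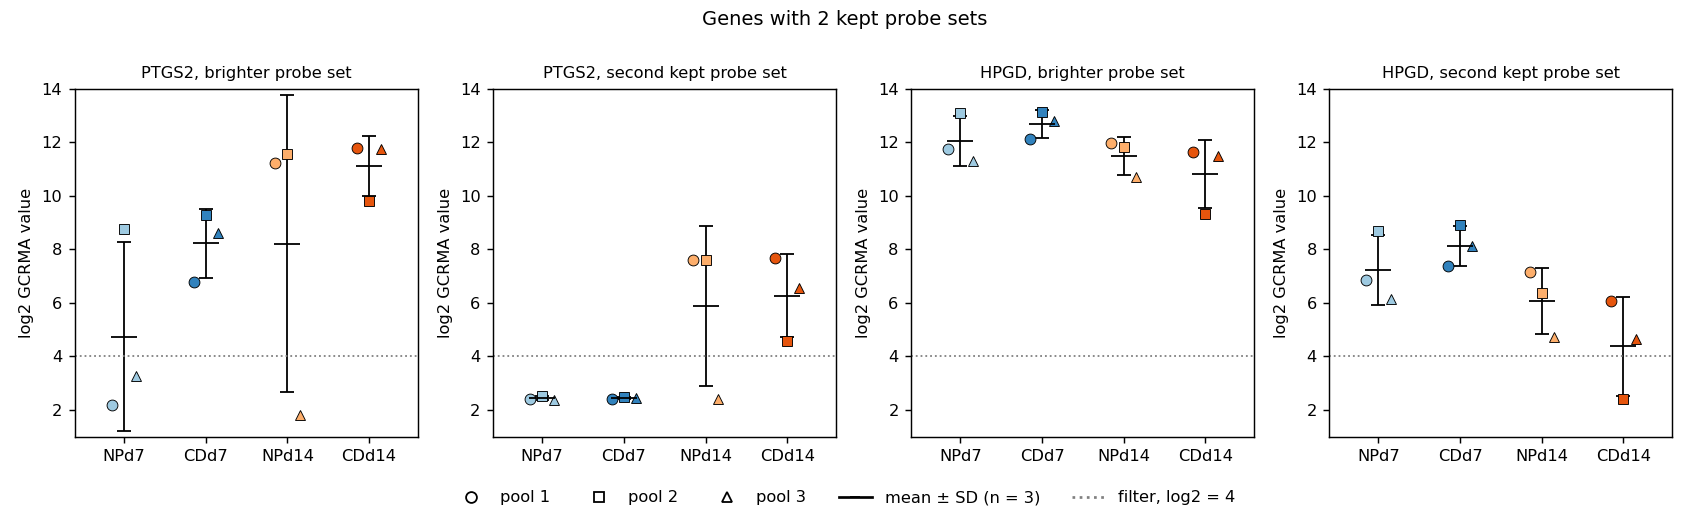
Log2 GCRMA values (vertical axes, 1 common scale) of the 2 kept probe sets of PTGS2 and of HPGD in each pool of the 4 groups (horizontal axes), with the mean and SD of 3 pools. The second PTGS2 probe set is at 2.36 to 2.50 in all day 7 pools and reaches 7.66 at day 14, and both HPGD probe sets have their lowest value in CDd14 pool 2.

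PTGS1, the constitutive cyclooxygenase, stayed close to the filter on every array, between 3.80 and 4.78. It was at 4.38, 3.93 and 3.80 in CDd7 pools 1 to 3 and at 4.49, 4.49 and 4.78 in pools 1 to 3 of CDd14. The CDd14 pools lay above those of CDd7, with a log2 difference of 0.55 ± 0.21 that did not pass (SE, limma adjusted p = 0.0802). It passed in 2 of the 12 fits without 1 array, those without CDd7 pool 1 (0.0479) or NPd14 pool 2 (0.0378). In the other such fits the limma adjusted p reached up to 0.217, and with no filter it was 0.135. Group means were 4.59 ± 0.17 in CDd14, 4.35 ± 0.13 in NPd7, 4.18 ± 0.38 in NPd14 and 4.04 ± 0.30 in CDd7. CDd14 did not overlap with NPd7, while NPd7 overlapped with NPd14 and NPd14 with CDd7. The other PTGS1 probe set lay at 1.96 to 2.02.

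PTGIS, prostacyclin synthase, is the enzyme that makes prostacyclin, a vasodilator. It stood at 8.96, 9.85 and 8.22 in CDd7 pools 1 to 3 and at 6.48, 6.53 and 6.88 in pools 1 to 3 of CDd14, with no overlap. The fall of 2.38 ± 0.35 on the log2 scale had a limma adjusted p = 0.00303. In NP the values were 8.90, 9.01 and 8.36 at day 7 and 7.94, 8.14 and 7.88 at day 14, again without overlap but with a smaller difference of -0.77 ± 0.35 that did not pass (limma adjusted p = 0.306). Every CDd14 pool was below every NPd14 pool, a difference of -1.36 ± 0.35 (limma adjusted p = 0.398, unadjusted p = 0.00273). From high to low the groups ran CDd7 (9.01 ± 0.82), NPd7 (8.76 ± 0.35), NPd14 (7.99 ± 0.13) and CDd14 (6.63 ± 0.22), and only CDd7 and NPd7 overlapped. The comparisons by day and by outcome share the CDd14 arrays.

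The measured smooth muscle marker MYLK was 5.49 ± 0.88 in CDd7 and 5.23 ± 1.16 in CDd14, while it was 8.73 ± 0.14 in NPd7 and 7.03 ± 1.01 in NPd14. The endothelial marker CLDN5 was 6.39 ± 0.74 in CDd7, 1.92 ± 0.22 in CDd14, 4.02 ± 0.77 in NPd7 and 2.46 ± 0.71 in NPd14. CLDN5 was above the filter on 5 arrays, all of day 7, so it was kept for its day 7 values. Its lower level at day 14 is given as a description. The part of these cell types in the PTGIS values was not tested, and the 6 other endothelial and 6 other smooth muscle markers were near background in all groups.

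PTGES, a synthase of prostaglandin E2, varied little. It lay between 5.79 and 7.06 on all 12 arrays, with means of 6.66 ± 0.58 in NPd14, 6.37 ± 0.25 in CDd14, 6.36 ± 0.44 in NPd7 and 6.08 ± 0.25 in CDd7, each overlapping with its neighbour. The day difference was 0.29 (95% confidence interval -0.38 to 0.97) in CD and 0.30 (-0.38 to 0.98) in NP on the log2 scale. The intervals leave room for a change of up to about 0.98 on this scale, so no change was shown, nor its absence.

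PTGDS, a synthase of prostaglandin D2, was dim and passed the filter through 3 arrays: NPd7 pool 2 (4.50), NPd7 pool 3 (4.20) and NPd14 pool 2 (4.06). NPd7 pool 1 was at 3.37, the CDd7 pools at 3.64, 3.14 and 3.15, NPd14 pools 1 and 3 at 3.15 and 3.19, and the CDd14 pools at 2.99, 2.94 and 2.90. It lay on average lower in CD than in NP by 0.72 at day 7 (limma adjusted p = 0.156) and by 0.52 at day 14 (limma adjusted p = 0.779). Since it was kept for its NP values, these differences are given as a description.

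Stromal fibroblast markers moved in the same direction at day 7. Of 8 listed, 7 were measured, and all 7 were lower in CDd7, 5 of them past the threshold, against 3.48% of all genes. From CDd7 to CDd14 PTGDS was lower by 0.36, while 5 of the 7 markers were higher, 1 of them past the threshold. Their mean level ranged from 9.11 to 10.38 in NPd7, 6.22 to 7.35 in CDd7, 7.30 to 9.27 in NPd14 and 6.74 to 7.80 in CDd14, where the highest NPd14 value was that of pool 2. COL1A1, the marker not measured, was at 2.27 to 4.24. The part of stroma in the PTGDS values was not tested.

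The receptors moved apart between the days in CD. PTGER2 stood at 3.92, 4.28 and 4.80 in CDd7 pools 1 to 3 and at 6.59, 5.64 and 6.18 in pools 1 to 3 of CDd14. It rose by 1.80 ± 0.40 on the log2 scale (SE, limma adjusted p = 0.0122), from a level near the filter. In NP it stood at 4.93, 4.27 and 4.10 at day 7 and at 5.02, 6.02 and 4.58 at day 14, so the days overlapped. The NP difference was 0.77 ± 0.40 (limma adjusted p = 0.368). From high to low the groups were CDd14 (6.14 ± 0.48), NPd14 (5.21 ± 0.74), NPd7 (4.44 ± 0.44) and CDd7 (4.33 ± 0.44), and each overlapped with the next.

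PTGER4 went the other way. It stood at 12.17, 11.64 and 10.91 in CDd7 pools 1 to 3 and at 8.72, 8.81 and 9.09 in pools 1 to 3 of CDd14. All CDd7 pools were thus far above all CDd14 pools. The fall of 2.70 ± 0.45 on the log2 scale had a limma adjusted p = 0.00456. In NP it stood at 9.50, 11.17 and 9.62 at day 7 and at 9.57, 10.25 and 9.47 at day 14, where the days overlapped, with a difference of -0.34 ± 0.45 (limma adjusted p = 0.761). The NP groups lay between the CD groups: CDd7 had 11.57 ± 0.63, NPd7 10.10 ± 0.93, NPd14 9.76 ± 0.42 and CDd14 8.88 ± 0.19. NPd14 did not overlap with CDd14, and the further neighbours did overlap.

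Of 8 columnar epithelial markers listed, 6 were measured, all 6 were higher in CDd14 than in CDd7 and 1 rose, as 9.87% of all genes did. Their mean level was 11.35 to 11.44 in CDd7 and 11.72 to 12.05 in CDd14. Leukocyte markers, of which 7 of 8 were measured, had a mean level of 6.39 to 7.58 in CDd7 and of 7.02 to 8.13 in CDd14, with 0 past the threshold. Stromal fibroblast markers had a mean level of 6.22 to 7.35 in CDd7 and of 6.74 to 7.80 in CDd14. The endothelial marker CLDN5, kept for its day 7 values, was 6.39 ± 0.74 in CDd7 and 1.92 ± 0.22 in CDd14. The 6 other endothelial markers were near background. The excess of 3' over 5' control signal, given above, was higher in CDd14. The part of these in the receptor values was not tested.

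**Figure D3:**
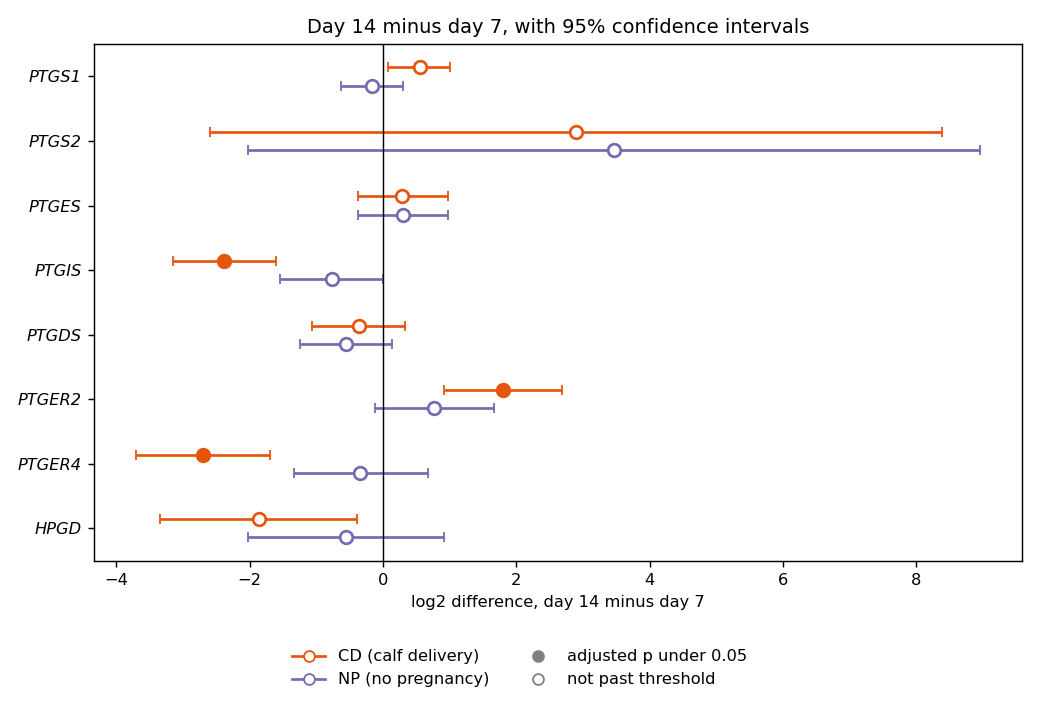
Log2 difference of day 14 minus day 7 (horizontal axis) for the 8 measured genes (vertical axis) in CD and in NP, with 95% confidence intervals from the limma fit and filled points where the adjusted p is under 0.05. In CD, PTGER2 lies at 1.80 and PTGER4 and PTGIS at -2.70 and -2.38, and no point of NP is filled.

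PTGFR, the receptor of prostaglandin F2 alpha, and SLCO2A1, the prostaglandin transporter, stayed below the filter on all 12 arrays. The 3 PTGFR probe sets did not exceed 2.94 on any array, and the SLCO2A1 probe set ranged from 2.25 to 2.86. No level can be read from values this close to background, and they do not show that the transcripts were missing from the tissue.

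HPGD, the enzyme that starts the breakdown of prostaglandins, was bright. Its brighter probe set stood at 12.11, 13.12 and 12.80 in CDd7 pools 1 to 3 and at 11.62, 9.33 and 11.49 in pools 1 to 3 of CDd14, a log2 difference of -1.86 ± 0.66 that did not pass (SE, limma adjusted p = 0.0650). Its second kept probe set stood at 7.38, 8.89 and 8.11 in CDd7 and at 6.08, 2.40 and 4.65 in CDd14 in the same order, and fell by 3.76 ± 0.98 (limma adjusted p = 0.0225). Both probe sets separate the CD days without overlap, and both were lowest in CDd14 pool 2, on the second probe set down to background.

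Without CDd14 pool 2 the difference of the brighter HPGD probe set was -1.12 (limma adjusted p = 0.187). The call of the second HPGD probe set was lost without CDd7 pool 2 (limma adjusted p = 0.0882), CDd14 pool 2 (0.0650) or CDd14 pool 3 (0.0570) and with no filter (0.0552). With the mean of both probe sets the gene fell by 2.81 (limma adjusted p = 0.0324). In NP the brighter probe set stood at 11.75, 13.10 and 11.32 at day 7 and at 11.96, 11.83 and 10.69 at day 14, overlapping, with -0.56 ± 0.66 (limma adjusted p = 0.722). Group means ran from 12.68 ± 0.51 in CDd7 over 12.05 ± 0.93 in NPd7 and 11.49 ± 0.70 in NPd14 to 10.81 ± 1.29 in CDd14, each overlapping with the next. The 2 probe sets correlated at 0.97 over the 12 arrays.

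The second question of the design is whether these genes already differed before transfer between heifers that later delivered a calf and those that did not. At day 7, 0 of 8 genes passed in limma (2 at an unadjusted p under 0.05, PTGER4 and PTGDS), against 3.48% of all measured genes. PTGDS was kept through its NP values, so nothing is read from its place in this count. At the unadjusted threshold 2062 of the 6781 genes passed. The groups overlapped in all 8 genes, while 35.3% of all genes did not overlap. PTGER4 was the closest: its difference of 1.48 ± 0.45 on the log2 scale, or 2.78-fold higher in CDd7, had a limma adjusted p = 0.0751, and NPd7 pool 2 (11.17) lay within the range of CDd7. Without NPd7 pool 2 the difference was 2.01 (limma adjusted p = 0.0183), and over all fits that left out 1 array the adjusted p ranged from 0.0183 to 0.259.

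At day 14, 0 of 8 genes passed in limma (2 at an unadjusted p under 0.05, PTGIS and PTGER2), where 0.0147% of all genes did. At the unadjusted threshold 430 of the 6781 genes passed. The groups did not overlap in 3 genes, PTGIS, PTGDS and PTGER4, all lower in CDd14, against 10.6% of all genes. PTGDS was kept through its NP values, so nothing is read from this count. PTGER4 was lower in CDd14 by 0.88 ± 0.45 (limma adjusted p = 0.711), the opposite sign to day 7. PTGER2 was higher in CDd14 by 0.93 ± 0.40 (limma adjusted p = 0.659), with NPd14 pool 2 (6.02) within the range of CDd14. For PTGS2 the difference of CD minus NP was 3.49 ± 2.47 at day 7 (limma adjusted p = 0.357) and 2.90 ± 2.47 at day 14 (limma adjusted p = 0.867). Single pools moved both values. The day 7 difference was 2.21 without NPd7 pool 1 and 5.51 without NPd7 pool 2. The day 14 difference was 4.42 without NPd14 pool 1, 4.59 without NPd14 pool 2 and -0.30 without NPd14 pool 3. The second PTGS2 probe set differed by 0.02 ± 1.23 at day 7 and by 0.40 ± 1.23 at day 14 (limma adjusted p = 0.995 and 0.978).

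**Figure D4:**
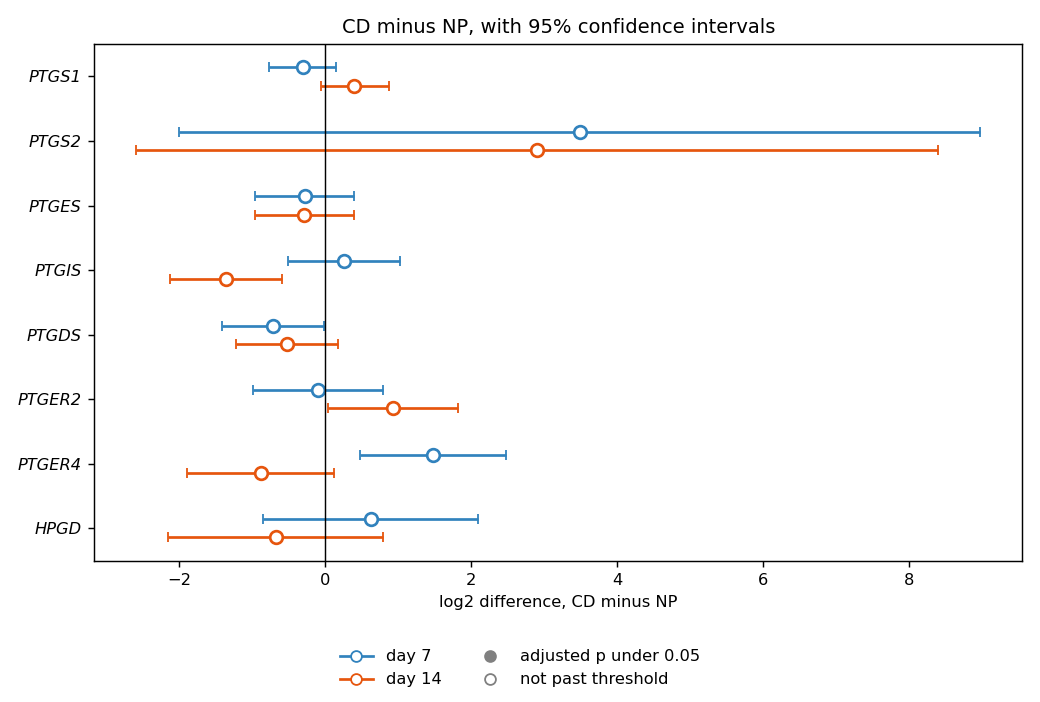
Log2 difference of CD minus NP (horizontal axis) for the 8 measured genes (vertical axis) at day 7 and at day 14, with 95% confidence intervals from the limma fit. No point is filled, since 0 of 8 genes passed at either day, and PTGER4 lies at 1.48 at day 7 and at -0.88 at day 14.

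Between the days in NP, 0 of 8 genes passed in limma (0 at an unadjusted p under 0.05), against 0.133% of all genes, and the days did not overlap in 1 of 8, PTGIS, against 22.6% of all genes. Whether the day effect differed between CD and NP was tested as the difference of both effects. Here 0 of 8 genes passed (3 at an unadjusted p under 0.05), as did 0% of all genes (980 genes at an unadjusted p under 0.05). For PTGER4 the difference of the day effects was -2.36 ± 0.64 (SE, limma adjusted p = 0.250, unadjusted p = 0.00398), for PTGIS -1.61 ± 0.49 (limma adjusted p = 0.268) and for PTGS1 0.71 ± 0.29 (limma adjusted p = 0.330). For PTGER2 it was 1.03 ± 0.56 (limma adjusted p = 0.410). The falls of PTGER4 and PTGIS and the rise of PTGER2 were thus called in CD and not in NP, without the difference between CD and NP being called.

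Some genes ran closely with the members over the 12 arrays, as a description of the highest of 6780 correlations each. PTGER4 was most like PDCD4, an inhibitor of translation (Pearson's r = 0.977), SEC31A, a coat protein of transport vesicles (0.975), and RSPRY1 (0.973). PTGIS was most like ABRACL (0.953), ENPP2, which makes lysophosphatidic acid (0.950), and XRCC3, a DNA repair protein (0.947). PTGER2 was most like SLC25A25, a mitochondrial carrier (0.965), HADHB, of mitochondrial fatty acid oxidation (0.953), and TM4SF1 (0.936). The points share the pools and the separation of the CD days.

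PTGS2 and HPGD were called on their second probe set alone. For PTGS2 that probe set was kept for its day 14 values, so its call is only a description. The brighter PTGS2 probe set was most like MSTN, myostatin (0.983), EPAS1, a hypoxia-inducible factor (0.952), and CKMT1A, a mitochondrial creatine kinase (0.947). MSTN was at 3.39 and 3.23 in NPd7 pools 1 and 3 and at 3.30 in NPd14 pool 3, the same 3 pools in which PTGS2 was below the filter, and at 5.93 or above in the other 9. HPGD was most like UQCRB, a subunit of respiratory complex III (0.959), ARHGAP26 (0.921) and TK1, thymidine kinase (0.907).

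The wider pathway was read from a list of 47 further eicosanoid genes, of which 26 had a probe set of their own symbol and 14 were measured. Between the days in CD, 0 of 14 rose and 2 fell, ALOX5AP and PLAA (14.3%, against 24.1% of all genes). ALOX5AP was kept through its CDd7 values, so this count supports nothing about the list. The 14 genes had a median log2 difference of -0.08 against 0.00 over all genes. In the other 4 contrasts 0 of 14 passed in limma, with 3 at an unadjusted p under 0.05 for CD against NP at day 7, 0 at day 14, 1 between days in NP and 1 where the day effects of CD and NP were set against each other. Over all 6781 genes these unadjusted counts were 2062, 430, 1116 and 980. The medians of the 14 were 0.02, 0.20, -0.20 and 0.07 in that order, against -0.01, 0.03, -0.06 and 0.04 over all genes.

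ALOX5AP, which presents arachidonic acid to the lipoxygenase of leukotriene synthesis, was at 4.95, 4.32 and 4.41 in CDd7 pools 1 to 3 and at 2.34, 2.74 and 3.25 in pools 1 to 3 of CDd14. It fell by 1.78 ± 0.45 on the log2 scale (SE, limma adjusted p = 0.0195), to a level below the filter. It was above the filter on 4 arrays, 3 of them those of CDd7, so it was kept through the group where it is high, and its fall is given as a description. With no filter the limma adjusted p was 0.0465. This call was lost without CDd7 pool 1 or 2 or CDd14 pool 1 or 2 (limma adjusted p = 0.0510 to 0.0611). In NP it stood at 2.77, 3.36 and 2.87 at day 7 and at 4.44, 3.20 and 2.42 at day 14, so the only NP array above the filter was NPd14 pool 1. Its CDd7 pools were all above the NPd7 pools, by 1.56 ± 0.45 (limma adjusted p = 0.0669), likewise given as a description. Over the 12 fits without 1 array the limma adjusted p was 0.0461 to 0.228, with 2 of them past the threshold. With no filter it was 0.128. The difference of the day effects was -2.13 ± 0.63 (limma adjusted p = 0.263).

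PLAA, an activator of phospholipase A2, was at 10.75, 10.87 and 10.61 in CDd7 pools 1 to 3 and at 10.46, 10.08 and 10.21 in pools 1 to 3 of CDd14. Its fall by 0.49 ± 0.16 (limma adjusted p = 0.0493) lay at the threshold and was lost in 10 of the 12 fits without 1 array (0.0512 to 0.160) and with no filter (0.0709). In NP it was lower at day 14 by a like amount, -0.44 ± 0.16, which did not pass (limma adjusted p = 0.226). At day 7 it was higher in CD than in NP by 0.40, with all CDd7 pools above all NPd7 pools (limma adjusted p = 0.132), and at day 14 by 0.35 with overlap (limma adjusted p = 0.676).

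AKR1B1, which makes prostaglandin F2 alpha in bovine endometrium, is named for that role after its values were seen. It was at 13.71, 13.70 and 12.64 in CDd7 pools 1 to 3 and at 11.47, 9.34 and 11.90 in pools 1 to 3 of CDd14, all lower than day 7, with a log2 difference of -2.44 ± 1.38 that did not pass (limma adjusted p = 0.216). In NP it was at 11.80, 13.16 and 11.44 at day 7 and at 11.12, 12.25 and 5.92 at day 14, where pool 3 lay far below the rest, as it did for PTGS2. PTGES3, the cytosolic synthase of prostaglandin E2, was between 13.17 and 13.84 on all arrays. Of the receptors on the list, PTGER3 and PTGDR2 had probe sets, and both were below the filter.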

How the data were processed

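Total RNA of pooled endometrial biopsies was biotin-labelled and hybridised to Affymetrix bovine arrays, per the labels' protocols. The authors deposited log2 values of GCRMA, which corrects background, normalizes between arrays and summarises each probe set. Per the submitters' processing notes the tools were GCRMA and limma, with version numbers not given in the sources used here. Dim probe sets end near a common floor, so folds from dim levels depend on it. After 112 control probe sets were left out, 13449 of 24016 probe sets passed the filter. Of the annotated symbols, 13263 matched by gene identifier and 29 did not. A gene stands as its kept probe set with the highest mean.

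The test was limma 3.58.1 in R 4.3.3 on 4 group means over all 12 arrays (8 residual and 2.13 prior degrees of freedom), with Benjamini-Hochberg adjustment over 13449 probe sets and a two-sided threshold of 0.05. Pool numbers are those the titles give as replicates, also for the CDd14 array whose title carries another number in its name. Deviations of same-numbered pools correlated at 0.16, 0.62 and 0.51 between days in NP and at 0.24, -0.07 and 0.23 in CD. Every NP pair was above 0.1, the rule set for pairing, and not every CD pair was. Same-numbered pools of NP and CD, which hold different heifers, correlated at -0.03, 0.36 and 0.27 at day 7. At day 14 these values were 0.10, -0.23 and 0.16. Some of them exceed those of NP pairs, so the correlations do not show which pools share heifers. The number of arrays limits the precision.

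The members, lists and tests were chosen with earlier results of these data known. All 10 genes are named with every probe set. Of the pathway list, genes called in any contrast and the gene with the smallest p in each contrast are named, and for members called on any kept probe set the 3 genes with the highest correlation. Alternatives were another filter, normalization, moderation, sample set, summary of probe sets, pool block and leaving out each array. The scripts were tested on simulated data.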

Additional observations from a re-analysis of the deposited data

How the results depend on the processing

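Between the days in CD, the count of 3 called genes was kept at 3 or 4 under all 8 alternatives and all 12 fits without 1 array, and PTGER2, PTGER4 and PTGIS were called in each of them. Their highest limma adjusted p over these fits was 0.0467 for PTGER2, 0.0232 for PTGER4 and 0.0173 for PTGIS. The fourth gene was HPGD with the mean of its probe sets, and PTGS1 without CDd7 pool 1 or NPd14 pool 2. For CD against NP at day 7 the count was 0 to 1 over the fits without 1 array, the 1 being PTGER4 without NPd7 pool 2. In the other contrasts it was 0 under every alternative run. With the pool number as a replicate block, the count in CD was 3 and that in NP 0, as it was with the pool number within each outcome as the block, which was added after seeing the data; PLAA lost its call under the replicate block over all groups (limma adjusted p = 0.0517) and kept it within outcomes (0.0484), and no other call of the measured prostaglandin genes, their second probe sets or ALOX5AP changed. With that block within outcomes, the difference of the day effects was called in 10 genes of the whole array, 0 of them prostaglandin genes. The calls over the whole array moved more: at day 7 between 0 and 867 genes without 1 array, against 236, and between the days in CD between 643 and 1871, against 1633. Between the days in NP they numbered 2 with the pool number as the block and 0 with the block within outcomes, 16 with no filter, 61 without NPd14 pool 2 and 63 without NPd14 pool 3, against 9. Of 940 refitted differences of the 8 measured prostaglandin genes, ALOX5AP and PLAA, 24 changed sign, none of them called. PTGS1, PTGDS, PTGFR and SLCO2A1 lay near or below the filter, so signal over background limits what can be said of them.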
